A study of Mus musculus with 36 samples.

Results

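The D and E cyclins, the kinase Cdk6 and the CDK inhibitors were followed as a set of 10 genes through the bulk RNA-seq of the BMP4-driven conversion of mouse epiblast stem cells (EpiSCs) towards a naïve state. The members were named by symbol from their place in the cell cycle, with earlier results of these data known: *Ccnd1*, *Ccnd2*, *Ccnd3*, *Cdk6*, *Ccne1*, *Ccne2*, *Cdkn1a*, *Cdkn1b*, *Cdkn2a* and *Cdkn2b*. All 10 were found in both deposited gene lists, among 50600 genes in the files of the sorted Day 3 cells and 29267 genes in the other files.

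D cyclins bind CDK4 or CDK6 in response to growth signals and start the phosphorylation of the retinoblastoma protein, which frees E2F factors. E cyclins, themselves encoded by E2F targets, bind CDK2 and carry the cell into S phase. Inhibitors of the CIP/KIP family (*Cdkn1a*, *Cdkn1b*) block cyclin E-CDK2, and those of the INK4 family, encoded by *Cdkn2a* and *Cdkn2b*, bind CDK4 and CDK6 directly. From another start, *Cdkn2a* also encodes ARF, which binds no CDK and acts on p53 through MDM2. Pluripotent cells in culture are known for short G1 phases, high cyclin E and low INK4 expression.

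RNA was measured in 11 libraries from 3 experiments. In the first, EpiSC cultures at Day 3 of Stage 1 medium (vitamin C, bFGF, LiCl, LIF, CHIR99021, BMP4, the EZH2 inhibitor EPZ6438 and a DOT1L inhibitor) were sorted into *c-Kit*+ and *c-Kit*- cells, with 2 libraries each. In the second, 3 libraries of EpiSCs kept in Activin A, bFGF and the tankyrase inhibitor XAV939 were set beside 2 libraries of sorted BV+SC+ cells at Day 6, which had passed 3 days in the same cocktail with EPZ5676 as DOT1L inhibitor and then 3 days in a second medium. BV and SC are *Blimp1*-mVenus and *Stella*-ECFP transgenes, so these cells were gated on reporters of *Prdm1* and *Dppa3*. The labels tie 1 BV+SC+ library to 2iJi and the other to GK15, while the shared protocol text names 2i with vitamin C for both, so the second medium and the replicate cannot be told apart. In the third, 1 library each came from unsorted cells at Day 3 with and without the DOT1L inhibitor SGC0946. The paper places both at Day 3 of the BMP4-driven conversion, which uses the Stage 1 medium, so neither is an untreated culture. The labels do not say whether same-group libraries came from separate cultures, or whether the EpiSC libraries carry the reporters, and p-values then measure only the spread between these libraries.

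Expected counts summed to between 1726038 and 1841442 per sorted Day 3 library, to between 2444211 and 3070115 per EpiSC library, to 14778809 and 18099059 in BV+SC+ cells, and to 4776143 with and 4577685 without SGC0946. *Kit* lay at 99.6 and 96.0 TPM in the *c-Kit*+ libraries against 4.81 and 3.24 in the *c-Kit*- libraries. *Dppa3* had no count in any EpiSC library and at least 6103 counts in each BV+SC+ library. *Dot1l* lay at 66.8 TPM with and 62.1 without SGC0946, which acts on the enzyme and leaves its transcript level no check of the label. The sorted libraries and the other 7 were counted on different gene lists with different kits, so levels set across them were normalised separately and were not tested.

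The stretches before the start sites of the INK4 genes are shown first, because *Cdkn2a* and *Cdkn2b* differed together between the sorted populations. *Cdkn2b* (GRCm38, chr4:89306299-89311039, minus strand) and *Cdkn2a* (chr4:89274471-89294653, minus strand) are neighbours separated by 11645 bases. *Cdkn2a* has an upstream start, which gives the ARF transcript, and a downstream start 12461 bases away inside its first intron, which gives the INK4A transcript. All stretches come from RefSeq (GRCm38.p6), run 5′ to 3′ on the strand of the gene and leave out any base that a GENCODE M21 exon covers. Capitals mark matches on either strand to the searched motifs. These were the GC box with the letters GGGCGG, the box named for its letters CCAAT, the TATA box as TATAAA, the E-box as CACGTG, the core of the cAMP response element as TGACGT, E2F elements written TTTCGCGC or as the variant TTTGGCGC, and the response element of p53.
*Cdkn2b*, chr4:89311040-89311282: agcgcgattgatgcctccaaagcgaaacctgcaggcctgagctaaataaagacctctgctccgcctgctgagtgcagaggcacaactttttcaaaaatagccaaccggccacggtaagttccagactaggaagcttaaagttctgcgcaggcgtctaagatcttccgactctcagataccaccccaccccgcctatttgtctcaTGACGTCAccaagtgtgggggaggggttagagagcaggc
*Cdkn2a* upstream start, chr4:89294654-89294869: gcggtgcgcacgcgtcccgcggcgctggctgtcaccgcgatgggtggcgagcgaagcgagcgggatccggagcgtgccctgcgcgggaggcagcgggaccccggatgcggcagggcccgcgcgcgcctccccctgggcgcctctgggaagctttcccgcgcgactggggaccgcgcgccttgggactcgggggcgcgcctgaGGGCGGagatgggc
*Cdkn2a* downstream start, chr4:89282193-89282442: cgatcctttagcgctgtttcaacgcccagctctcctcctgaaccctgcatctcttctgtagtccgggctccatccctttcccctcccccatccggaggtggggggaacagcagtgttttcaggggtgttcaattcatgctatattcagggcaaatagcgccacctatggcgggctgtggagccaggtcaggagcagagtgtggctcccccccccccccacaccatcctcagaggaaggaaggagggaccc

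Over the 250 bases before each RefSeq start, the window of the upstream *Cdkn2a* start was 78.4% G or C with 40 CpG, against 60% with 7 CpG at the downstream start and 53.6% with 12 CpG at *Cdkn2b*. The median over all 32851 windows in the table was 52.4%. In *Cdkn2b*, TGACGT was found on both strands, at -46 to -41 and, overlapping it, at -44 to -39. TGACGT was present in 6.47% of all windows on either strand. The upstream *Cdkn2a* window held GC boxes at -48 to -43 and at -14 to -9, the latter inside the exon as GENCODE draws it and so not printed. A GC box was present in 32.74% of windows. No searched motif was present in the window of the downstream start.

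2 further stretches belong to members that differed in opposite directions between the sorted populations. *Cdkn1a* (chr17:29090976-29100727, plus strand) has an upstream and a downstream RefSeq start, and *Cdk6* (chr5:3341485-3531008, plus strand) has 1 in the table.
*Cdkn1a* upstream start, chr17:29090729-29090975: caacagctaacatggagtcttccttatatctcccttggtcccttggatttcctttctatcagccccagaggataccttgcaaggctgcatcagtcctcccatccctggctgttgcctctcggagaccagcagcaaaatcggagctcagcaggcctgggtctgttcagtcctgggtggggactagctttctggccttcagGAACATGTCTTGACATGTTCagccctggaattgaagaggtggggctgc
*Cdk6*, chr5:3343789-3343892: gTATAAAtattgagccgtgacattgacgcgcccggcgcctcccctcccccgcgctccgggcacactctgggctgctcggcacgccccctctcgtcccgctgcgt
The capitals of *Cdkn1a*, at -51 to -32, match the p53 response element with both core motifs intact and at most 2 mismatches elsewhere, a pattern found in 0.13% of windows. The window of its downstream start held 2 GC boxes. *Cdk6* held TATAAA at -103 to -98, as did 12.37% of windows, and an E-box at -220 to -215, found in 6.02% of windows and inside an exon of a longer *Cdk6* transcript. E2F elements of the 2 searched forms were in no window of a member and in 0.26% and 0.42% of all windows. Other forms of the element were not searched, so these windows may still hold E2F sites. Windows were in the table for 7 of the 10 members, and those of *Ccnd3*, *Ccne1* and *Cdkn1b* held 5, 4 and 3 matches in all to the listed motifs.

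**Figure D1:**
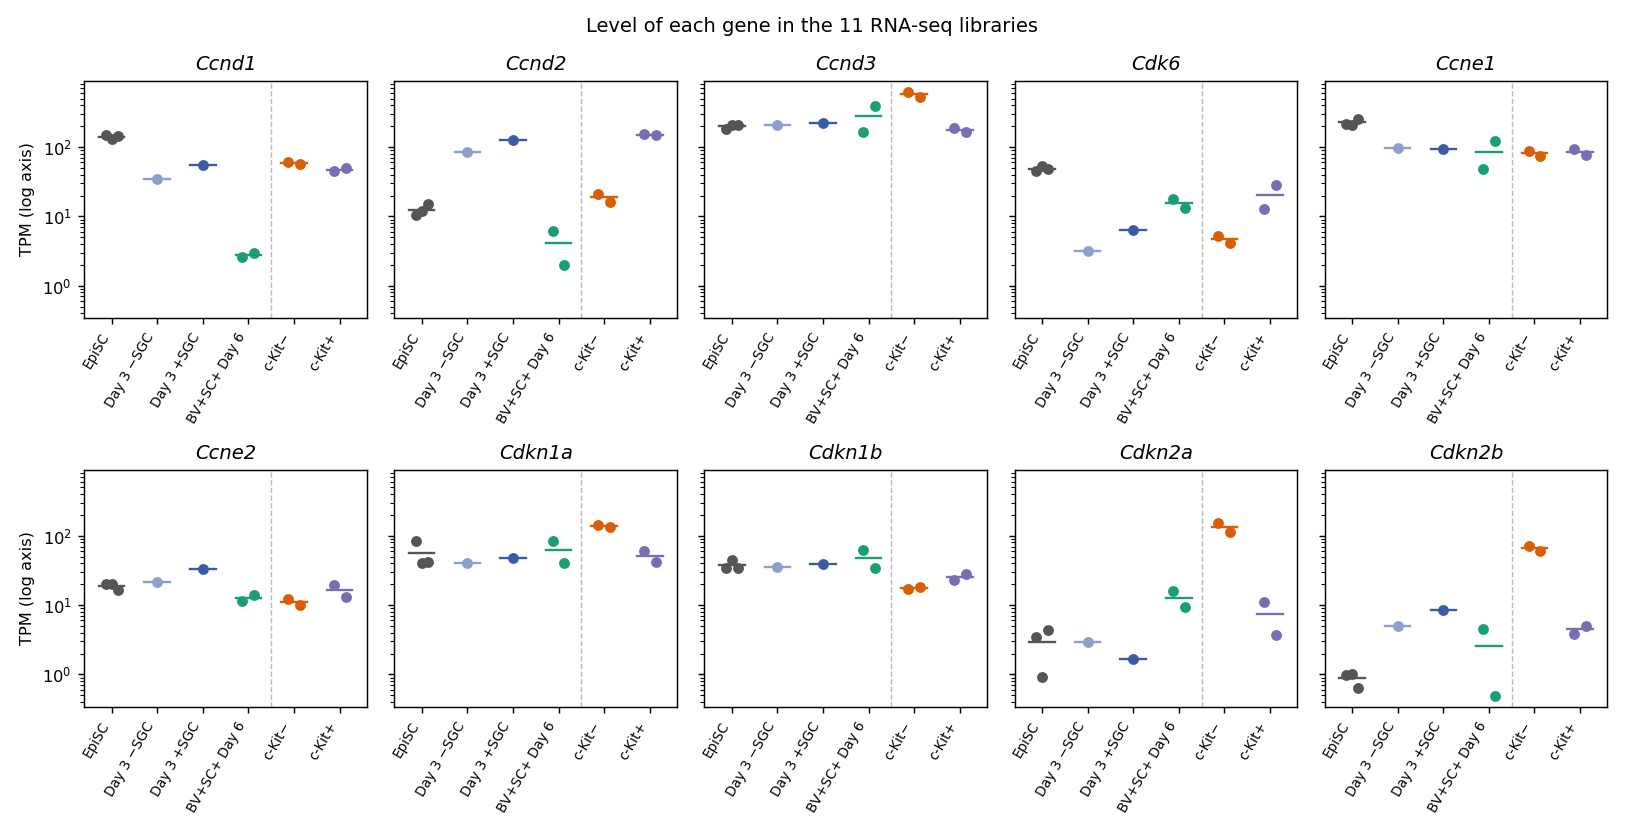
Level of each gene in TPM on a log axis, with 1 point per library and a bar at the group mean. Groups right of the dashed line were counted on another gene list than those on its left. *Cdkn2a* and *Cdkn2b* are highest in the 2 c-Kit- libraries, and *Ccnd1* is lowest in the 2 BV+SC+ libraries.

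The first comparison asks which cyclins and inhibitors separate cells on the *c-Kit*+ branch from the remaining Day 3 cells. *Ccnd2* and *Cdk6* were higher in *c-Kit*+ cells, and *Ccnd3*, *Cdkn1a*, *Cdkn2a* and *Cdkn2b* were lower, all by more than 2-fold. In bulk RNA, fewer cells of a type and less RNA per cell cannot be told apart. By edgeR's quasi-likelihood test with Benjamini-Hochberg adjustment over all 11018 genes tested, 2 of the 10 members passed an adjusted p of 0.05 as higher and 4 as lower. Over all genes, 20.2% passed as higher and 21.3% as lower. The median log2 fold change was 0.04 over the members and 0.03 over all genes. *Ccnd1*, *Ccne1*, *Ccne2* and *Cdkn1b* did not pass.

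*Ccnd2*, a D cyclin that partners CDK4 and CDK6, lay at 155 and 148 TPM in the *c-Kit*+ libraries and at 21.3 and 16.3 in the *c-Kit*- libraries. The populations did not overlap, with the *c-Kit*+ libraries high. Normalised levels were 418 ± 16.0 CPM against 41.6 ± 8.44 (SD, n = 2 each), a log2 fold change of 3.33 (SE 0.15, adjusted p = 8e-07). *Ccnd3*, another D cyclin, went the other way. It lay at 188 and 164 TPM in *c-Kit*+ and at 627 and 534 in *c-Kit*- cells. It fell by 1.58 on the log2 scale (SE 0.11, adjusted p = 8.92e-06).

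*Ccnd1* did not pass. It lay at 44.8 and 49.2 TPM in *c-Kit*+ against 60.02 and 57.2 in *c-Kit*- cells. The log2 difference was -0.18 with a 95% interval from -0.48 to 0.12 (adjusted p = 0.31). The D cyclins therefore took different shares of their summed TPM in each population, given as a description. *Ccnd2* made up 39.9% and 41.1% of the D cyclin TPM in the *c-Kit*+ libraries and 3.0% and 2.7% in the *c-Kit*- libraries, where *Ccnd3* made up 88.5% and 87.9%. The sum itself was 387 and 361 TPM in *c-Kit*+ and 708 and 607 in *c-Kit*- cells.

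*Cdk6*, the catalytic partner of the D cyclins, was counted 145 and 224 times in *c-Kit*+ cells and 13 and 11 times in *c-Kit*- cells, in rounded expected counts. The log2 fold change of counts was 3.99 (SE 0.29, adjusted p = 9.91e-06). The size of this difference depends on transcript length. Its mean transcript length was 2626.1 bases at the lowest and 11525 at the highest among these 4 libraries, so the TPM were closer, at 12.9 and 28.01 against 5.26 and 4.08. With an offset for effective length the log2 fold change was 2.26 (adjusted p = 0.00701). *Cdk4*, the other partner, was higher by 0.50 (SE 0.09, adjusted p = 0.00202), and *Cdk2*, the partner of the E cyclins, did not pass at -0.03 (SE 0.14, adjusted p = 0.873).

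Neither E cyclin passed. *Ccne1*, the more abundant one, lay at 94.1 and 77.5 TPM in *c-Kit*+ and at 88.7 and 74.6 in *c-Kit*- cells, with overlapping ranges in TPM. The log2 difference of counts was 0.25 with a 95% interval from -0.10 to 0.61 (adjusted p = 0.231). *Ccne2* lay at 19.7 and 13.2 TPM against 12.3 and 9.97. Its log2 fold change of counts was 0.49, with an interval from -0.22 to 1.20 (adjusted p = 0.242). *Ccne2* shares 5622 bases of its locus with *Ints8* on the opposite strand, and the counting is not stated to use strand, so its reads and those of *Ints8* cannot be told apart there.

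*Cdkn1a*, the CIP/KIP inhibitor known as a p53 target, lay at 59.6 and 42.5 TPM in *c-Kit*+ and at 144 and 134 in *c-Kit*- cells. The *c-Kit*- libraries were the higher ones and the groups did not overlap. It fell by 1.32 on the log2 scale (SE 0.17, adjusted p = 0.000249). *Cdkn1b*, the related KIP inhibitor, had its higher values in the *c-Kit*+ libraries, at 23.0 and 27.9 TPM against 17.0 and 18.4. The log2 fold change of 0.59 (SE 0.23) had an adjusted p of 0.0672 and did not pass.

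*Cdkn2a*, which encodes INK4A and ARF, was counted 9 and 3 times in *c-Kit*+ cells and 120 and 89 times in *c-Kit*- cells. In TPM these were 11.2 and 3.68 against 152 and 114, with no overlap. It fell by 4.03 on the log2 scale (SE 0.39, adjusted p = 5.55e-05). *Cdkn2b*, the neighbouring INK4B gene, had 5 and 7 counts against 91 and 77, or 3.88 and 5.05 TPM against 71.4 and 61.2. It fell by 3.72 (SE 0.33, adjusted p = 3.31e-05). The *c-Kit*- libraries were the high ones for both neighbours. Both genes passed the count filter only through those libraries, so their p-values are no separate support for the direction. 1 *c-Kit*+ library was at the floor of 3 counts for *Cdkn2a*, and without it or the other *c-Kit*+ library the log2 fold change was -3.44 or -5.07.

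The transcript choice of *Cdkn2a* can be read from the deposited length of the gene, which RSEM gives as the mean of its 2 listed transcripts (895 and 852 bases, from the upstream and the downstream start) weighted by abundance. In the *c-Kit*- libraries 95.2% and 97.5% of the *Cdkn2a* transcripts were assigned to the upstream start, the one printed above with its GC-rich stretch. The library with 9 counts in *c-Kit*+ cells was assigned wholly to the upstream start and that with 3 counts wholly to the downstream start. At such counts a share has little precision. All 7 libraries of the other experiments were assigned wholly to the upstream start. Of these, the BV+SC+ libraries had 92 and 66 counts and the rest at most 5, where a share again has little precision.

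The transcripts of the 4 inhibitor genes, ARF transcripts of *Cdkn2a* included, summed to 97.7 and 79.2 TPM in the *c-Kit*+ libraries and to 385 and 327 in the *c-Kit*- libraries. The INK4 genes together with *Cdkn1a* took nearly all of the sum in *c-Kit*- cells, and *Cdkn1b* took 4.4% and 5.6%. In *c-Kit*+ cells *Cdkn1b* took 23.6% and 35.3%. Per TPM of D and E cyclin, the TPM of these 4 genes came to 0.195 and 0.175 in *c-Kit*+ and to 0.475 and 0.473 in *c-Kit*- cells, given as a description.

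Markers of another lineage moved with these members. Of 13 tested trophoblast markers, 12 were lower in *c-Kit*+ cells and none was higher. The 14 listed markers summed to 6409 and 5106 TPM in *c-Kit*+ and to 30017 and 28803 in *c-Kit*- cells. None of the 14 was at 0 in any of the 4 libraries. Of 4 tested fibroblast markers, all 4 were lower, and the 8 listed ones summed to 60.5 and 49.0 against 189 and 163 TPM. Both tested mesoderm markers were higher. The 8 listed ones summed to 171 and 208 against 4.4 and 5.4 TPM, with 151 and 187 of the former from *T* alone. The part of these cells in the differences of the cyclins and inhibitors was not tested.

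Other genes of the G1/S network were read from lists of pathway genes. Their counts stand beside 20.2% of all genes higher and 21.3% lower. Of 20 tested genes of the G1/S machinery, 6 were higher and 1 was lower. *Rbl1*, a retinoblastoma relative, was higher by 1.51 on the log2 scale (SE 0.30, adjusted p = 0.00362), and *E2f4* by 0.59 (SE 0.13, adjusted p = 0.00484). *Cdkn2d*, another INK4 inhibitor, was the lower one, at 13.7 and 18.1 TPM in *c-Kit*+ against 47.5 and 32.6 in *c-Kit*- cells. It fell by 1.27 (SE 0.32, adjusted p = 0.0104), the direction of *Cdkn2a* and *Cdkn2b*. *Rb1* (-0.63, adjusted p = 0.321) and *E2f1* (0.20, adjusted p = 0.312) did not pass. *Cdkn1c* and *Cdkn2c* had at most 11 counts in any of these libraries and were not tested.

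Of 22 S-phase genes under E2F control, 14 were higher in *c-Kit*+ cells and 1 was lower, with a median log2 fold change of 0.51. *Pola1*, a subunit of DNA polymerase alpha, was among the higher genes (1.38, SE 0.22, adjusted p = 0.0011), as was *Gins1* (1.19, SE 0.24, adjusted p = 0.00378). *Gins2*, another subunit of the same replication complex, fell by 1.00 (SE 0.21, adjusted p = 0.00433). Of 18 genes of G2 and mitosis, 7 were higher and 1 lower. *Top2a* was higher by 1.00 (SE 0.13, adjusted p = 0.000263), and *Cdc25b* fell by 1.31 (SE 0.16, adjusted p = 0.000211).

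Of 18 tested p53 targets other than *Cdkn1a*, 1 was higher and 7 were lower, with a median of -0.18. *Perp* fell by 1.92 (SE 0.20, adjusted p = 8.71e-05), *Phlda3* by 1.40 (SE 0.15, adjusted p = 0.000106) and *Bbc3* by 1.15 (SE 0.22, adjusted p = 0.00262). *Gadd45a* was the higher one, by 2.52 (SE 0.23, adjusted p = 3.5e-05). Upstream regulators of these genes went both ways, 6 higher and 4 lower of 12. *Trp53*, which encodes p53, was higher by 1.52 (SE 0.10, adjusted p = 6.64e-06), opposite in direction to the lower targets. *Bmi1*, a Polycomb gene known to repress *Cdkn2a*, was higher by 1.94 (SE 0.41, adjusted p = 0.00475). *Tgfb1*, whose signal is known to induce *Cdkn2b*, fell by 2.22 (SE 0.21, adjusted p = 4.97e-05). *Myc*, an activator of D cyclins, lay at 22.0 and 26.8 TPM in *c-Kit*+ and at 110 and 86.0 in *c-Kit*- cells. Of the D cyclins, *Ccnd2* was higher and *Ccnd3* lower in *c-Kit*+ cells.

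**Figure D2:**
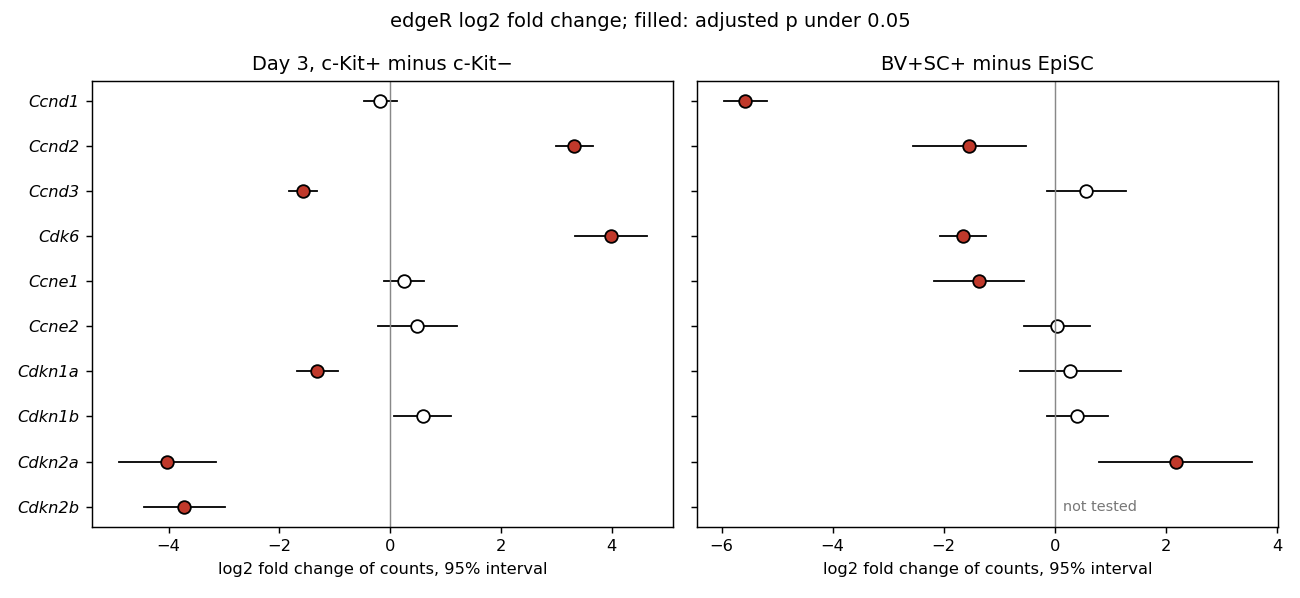
Log2 fold change of counts from edgeR with its 95% interval for each gene, in *c-Kit*+ against *c-Kit*- cells (n = 2 and 2 libraries) and in BV+SC+ cells against EpiSCs (n = 2 and 3). Filled points passed an adjusted p of 0.05, and *Cdkn2b* was not tested in the second comparison. *Ccnd2*, *Cdk6* and *Cdkn2a* lie on opposite sides of 0 in the 2 panels.

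The second comparison sets Day 6 BV+SC+ cells, sorted as germ-cell-like cells, against EpiSCs, the cell type from which the induction starts. The labels do not say that these 3 libraries come from the parental line. *Ccnd1*, *Ccnd2*, *Cdk6* and *Ccne1* were lower in BV+SC+ cells and *Cdkn2a* was higher. Of the 9 members tested among 11792 genes, 1 passed as higher and 4 as lower by the same edgeR test. Over all genes, 29.6% passed as higher and 26.5% as lower, and the median log2 fold change was 0.04 over the members and 0.05 over all genes. *Cdkn2b* had too few counts for the filter. All 10 germ cell and naïve markers were higher in BV+SC+ cells.

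*Ccnd1* showed the largest difference among the members. It lay at 151, 129 and 143 TPM in the EpiSC libraries and at 2.59 and 2.99 in the BV+SC+ libraries. The groups were far apart and both BV+SC+ libraries were low. It fell by 5.58 on the log2 scale (SE 0.17, adjusted p = 1.42e-06). *Ccnd2* lay at 10.5, 11.9 and 15.1 TPM in EpiSCs and at 6.25 and 1.96 in BV+SC+ cells. It fell by 1.54 (SE 0.44, adjusted p = 0.0187), and without EpiSC replicate 2 or 3 it did not pass (adjusted p = 0.0615 and 0.0649). It fell by 2.55 without BV+SC+ replicate 1 and by 0.93 without replicate 2.

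*Ccnd3* remained the main D cyclin of both. It lay at 181, 209 and 207 TPM in EpiSCs and on either side of them, at 167 and 386 TPM, in BV+SC+ cells. Its log2 fold change was 0.57 with an interval from -0.14 to 1.28 (adjusted p = 0.15), and the 2 BV+SC+ libraries decide it. It was 1.07 without replicate 1 (adjusted p = 2.74e-06) and -0.20 without replicate 2 (adjusted p = 0.154). *Ccnd3* made up 52.8% to 59.7% of the D cyclin TPM in EpiSCs and 95% and 98.7% in BV+SC+ cells. The share of *Ccnd1* went from 36.9% to 44.1% in EpiSCs to 1.5% and 0.8% in BV+SC+ cells.

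*Cdk6* lay at 44.5, 52.9 and 47.5 TPM in EpiSCs and at 17.9 and 13.1 in BV+SC+ cells, without overlap. It fell by 1.66 (SE 0.18, adjusted p = 0.000195). The other kinases differed less. *Cdk4*, at 816 to 829 TPM in EpiSCs and 563 and 404 in BV+SC+ cells, fell by 0.39 (SE 0.13, adjusted p = 0.031), and *Cdk2* did not pass at -0.31 (SE 0.13, adjusted p = 0.0759).

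*Ccne1* lay at 218, 211 and 258 TPM in EpiSCs and at 48.2 and 121 in BV+SC+ cells. All 3 EpiSC libraries were above both BV+SC+ libraries. It fell by 1.36 (SE 0.35, adjusted p = 0.0117), by 2.22 without BV+SC+ replicate 2 and by 0.83 without replicate 1. *Ccne2* lay at 20.0, 19.9 and 16.8 TPM in EpiSCs and 11.5 and 13.8 in BV+SC+ cells. Its counts did not pass, with a log2 fold change of 0.04 and an interval from -0.56 to 0.64 (adjusted p = 0.909). The mean length of *Ccne2* transcripts ranged from 1407.4 to 2915.8 bases among the libraries on this gene list, so its TPM and counts can order libraries differently.

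The CIP/KIP inhibitors did not pass with all libraries, and their values depended on which BV+SC+ library was read. *Cdkn1a* lay at 83.4, 40.6 and 42.5 TPM in EpiSCs and at 84.6 and 40.6 in BV+SC+ cells, so that 1 library of each group stood well above the rest of its group, and the groups overlapped. Its log2 fold change was 0.28, with an interval from -0.63 to 1.18 (adjusted p = 0.57). It was -0.44 without BV+SC+ replicate 1 (adjusted p = 0.19) and 0.75 without replicate 2 (adjusted p = 0.0203). *Cdkn1b* lay at 34.4, 44.5 and 34.4 TPM in EpiSCs and at 61.6 and 34.0 in BV+SC+ cells, at 0.40 with an interval from -0.15 to 0.95 (adjusted p = 0.182). It was -0.07 without BV+SC+ replicate 1 (adjusted p = 0.699) and 0.76 without replicate 2 (adjusted p = 0.000323). *Cdkn1c*, the third KIP gene and an imprinted one, had 4, 0 and 0 counts in EpiSCs and 164 and 279 in BV+SC+ cells. It was higher by 4.78 (SE 0.78, adjusted p = 0.00136). It passed the count filter only through the BV+SC+ libraries, where it is high, so the p-value is no separate support for the direction.

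*Cdkn2a* had 4, 1 and 4 counts in the EpiSC libraries and 92 and 66 in the deeper BV+SC+ libraries. In TPM these were 3.49, 0.91 and 4.36 against 15.8 and 9.44, with no overlap. It was higher by 2.18 (SE 0.59, adjusted p = 0.015), and without EpiSC replicate 1 or 2 it no longer passed (adjusted p = 0.0513 and 0.0609). *Cdkn2a* also passed the count filter only through the BV+SC+ libraries, with the same limit on its p-value. *Cdkn2b* had 2, 2 and 1 counts in EpiSCs and 47 and 6 in BV+SC+ cells. In CPM (counts scaled to library size), the first BV+SC+ library was at 5.40 times the 3 pooled EpiSC libraries (95% exact interval 2.16 to 17.4, counting error only) and the second at 0.56 times (0.14 to 2.33). The level of *Cdkn2b* in these cells therefore rests on which library is read.

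The summed TPM of the 4 inhibitor genes, again with ARF, was 0.128 to 0.21 of the summed cyclin TPM in EpiSCs and 0.709 and 0.161 in BV+SC+ cells. The first BV+SC+ library stood apart in this ratio. D cyclin TPM was 1.33 to 1.52 times E cyclin TPM in EpiSCs and 2.94 and 2.9 times in BV+SC+ cells, so that both BV+SC+ libraries lay above all EpiSC libraries.

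Of 22 tested G1/S machinery genes, 3 were higher and 5 lower. This and the following list counts stand beside 29.6% of all genes higher and 26.5% lower. *E2f4* fell by 1.62 (SE 0.12, adjusted p = 2.96e-05) and *Cks1b*, a CDK subunit, by 1.56 (SE 0.13, adjusted p = 4.77e-05), while *E2f1* was higher by 0.50 (SE 0.14, adjusted p = 0.0179). *Skp2*, the ligase subunit that marks the protein of *Cdkn1b* for degradation, did not overlap between groups and was higher by 0.94 (SE 0.12, adjusted p = 0.000346). *Rb1* (0.76, adjusted p = 0.0562) and *Cdkn2d* (-0.36, adjusted p = 0.311) did not pass. *Cdkn2c* had at most 44 counts and was not tested. Of 22 S-phase genes 5 were higher and 7 lower. *Gins2* fell by 1.69 (SE 0.21, adjusted p = 0.000385) and *Uhrf1* by 1.303 (SE 0.11, adjusted p = 5.76e-05). Of 18 G2 and mitosis genes 6 were higher and 3 lower, and *Plk1* fell by 1.38 (SE 0.20, adjusted p = 0.000778).

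Of 19 tested p53 targets, 4 were higher and 9 lower, with a median of -0.70. *Pmaip1* fell by 2.68 (SE 0.42, adjusted p = 0.00117), *Btg2* by 2.23 (SE 0.28, adjusted p = 0.000429) and *Bbc3* by 2.02 (SE 0.42, adjusted p = 0.00448). Upstream of the members, 5 regulators were higher and 3 lower of 12. *Myc*, an activator of D cyclins, fell by 4.62 (SE 0.43, adjusted p = 9.87e-05). Its relative *Mycn* lay at 99.8 and 153 TPM in BV+SC+ cells and at 73.9, 46.9 and 51.7 in EpiSCs. *Bmi1*, named above as a known repressor of *Cdkn2a*, was higher by 2.78 (SE 0.57, adjusted p = 0.00404), and *Cdkn2a* was higher too. Of 8 tested trophoblast markers, 6 were higher and none lower in BV+SC+ cells. The 14 listed ones summed to 648 and 262 TPM in the BV+SC+ libraries and to 219 to 263 in EpiSCs. Their part in the values of the members was not tested.

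**Figure D3:**
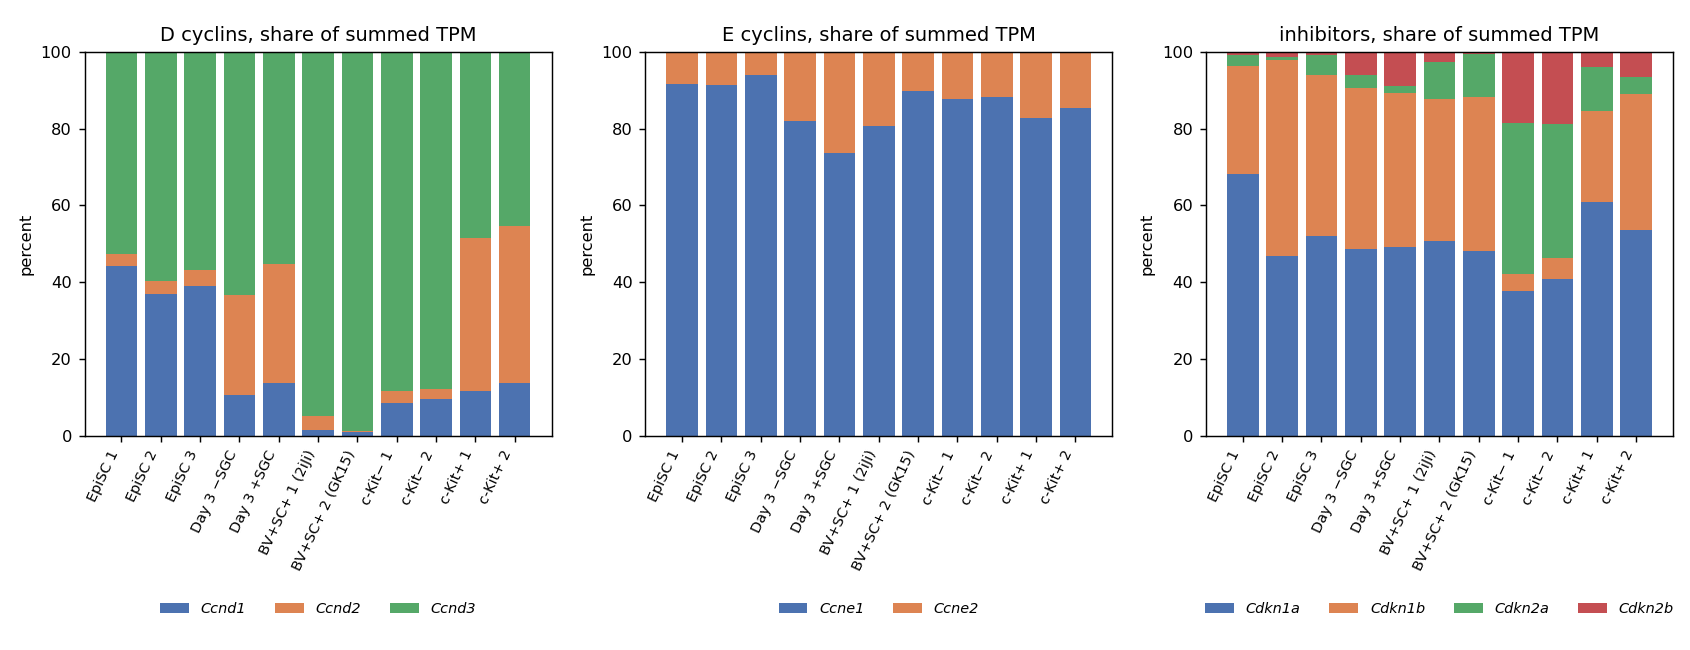
Share of each gene in the summed TPM of its class, in percent, with 1 bar per library. *Ccnd2* takes 39.9% and 41.1% of the D cyclins in the *c-Kit*+ libraries, *Ccnd3* takes 95% and 98.7% in the BV+SC+ libraries, and *Cdkn2a* with *Cdkn2b* is widest in the *c-Kit*- libraries.

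The 2 BV+SC+ libraries were then set against each other, a comparison chosen after their values were seen, with no test since each label has 1 library. Called past 2-fold on the log2(TPM + 1) scale, 2 of the 10 members were higher in the library labelled GK15 and 3 were lower. Over 13574 genes with more than 1 TPM in either library, 5.44% were higher and 5.94% lower. The higher members were cyclins and the lower ones were *Ccnd2* and 2 inhibitors.

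*Ccne1* was 2.49 times as high in CPM in the GK15 library (95% exact interval 2.29 to 2.71), and *Ccnd3* was 2.28 times as high (2.18 to 2.39). These intervals cover counting error between 2 libraries, not the spread of the conditions. *Ccnd2* lay at 0.308 times (0.246 to 0.383), *Cdkn1a* at 0.416 times (0.378 to 0.458) and *Cdkn2b* at 0.104 times (0.036 to 0.244). *Cdkn1b* and *Cdkn2a* were also at the lower value in the GK15 library, at 0.534 (0.491 to 0.581) and 0.586 times (0.42 to 0.812), within the 2-fold limit. All 4 inhibitor genes among the members had their lower value in that library, with *Cdkn2a* assigned wholly to its ARF start. Over all genes the median log2 ratio of TPM + 1 was -0.033, so a lower value in that library was common and sets no gene apart by itself. Inhibitor genes outside the set went both ways. *Cdkn1c* lay at 1.389 times (1.141 to 1.695), *Cdkn2c* at 0.241 (0.119 to 0.456) and *Cdkn2d* at 0.654 (0.532 to 0.802). *Cdk6* lay at 0.679 times (0.596 to 0.774), and the intervals of *Ccnd1* (0.841 to 1.52) and *Ccne2* (0.867 to 1.20) held 1.

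Other lists differed between these libraries too. Of 19 p53 targets, 4 were past 2-fold higher in the GK15 library, and none was lower, against the direction of *Cdkn1a*. *Pmaip1* lay at 20.0 TPM against 6.75 and *Zmat3* at 22.6 against 7.04. Of 13 trophoblast markers, 6 were lower and 2 higher, and of 7 epiblast markers 3 were higher and none lower. The part of these cells in the member values was not tested.

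The third comparison concerns the DOT1L inhibitor, which removes H3K79 methylation, a mark of transcribed genes. On the log2(TPM + 1) scale, no member passed 2-fold between the Day 3 libraries with and without SGC0946, where 6.33% of 14038 genes were past 2-fold higher and 3.45% lower. The median log2 ratio of TPM + 1 was 0.38 over the members and 0.01 over all genes. The member median depends in part on *Ccne2*, whose log2 ratio was 0.64 in TPM and -0.14 in CPM. With 1 library per condition there was no replicate check.

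*Ccnd1* lay at 55.6 TPM with and 34.9 without SGC0946, and *Ccnd2* at 126 and 85.8. The ratios of CPM were 1.56 (95% exact interval 1.35 to 1.81) and 1.5 (1.39 to 1.61). Both intervals lay above 1 and below 2, in terms of counting error alone. *Ccnd3* lay at 224 and 209 TPM, with a ratio of 1.11 (1.01 to 1.21). *Cdk6* lay at 6.29 and 3.17 TPM, on 59 and 28 counts, with a ratio of 2.02 (1.27 to 3.29). Its log2 ratio of TPM + 1 was 0.81, under the limit.

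*Ccne1* lay at 94.2 and 97.3 TPM, with a ratio of 1.00 (0.875 to 1.15). *Ccne2* showed 33.7 TPM with and 21.3 without, on nearly equal counts of 107 and 114, so that its ratio of counts was 0.9 (0.684 to 1.18) and its log2 ratio changed sign from 0.64 in TPM to -0.14 in CPM. *Cdkn1a* had a ratio of 1.14 (0.92 to 1.41) and *Cdkn1b* of 1.07 (0.896 to 1.29). These intervals all held 1. *Cdkn2b* lay at 8.59 and 5.06 TPM, on 27 and 15 counts, with a ratio of 1.73 (0.886 to 3.49). *Cdkn2a* had 3 and 5 counts, too few to order the libraries, with a ratio of 0.575 (0.089 to 2.96).

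Among list genes, 2 of 23 in the G1/S machinery were past 2-fold higher, *Rbl2* and *Ccna1*. *Rbl2* had 13 counts in both libraries and *Ccna1* had 7 and 1. No gene of the S-phase, G2 and mitosis, p53 or upstream lists was past 2-fold. *Prdm1* lay at 57.5 TPM with and 29.6 without SGC0946. Of 8 germ cell and naïve markers over the filter, 6 were past 2-fold higher with SGC0946. The summed trophoblast markers were at 12307 TPM with and 17357 without, no marker of 12 over the filter was past 2-fold, and *Elf5* was at 0 in the library without. *Igf2* alone gave 7044 and 11786 TPM of these sums. Single markers went both ways, with *Phlda2* at 2361 TPM with and 1921 without. The part of these markers in the member ratios was not tested.

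**Figure D4:**
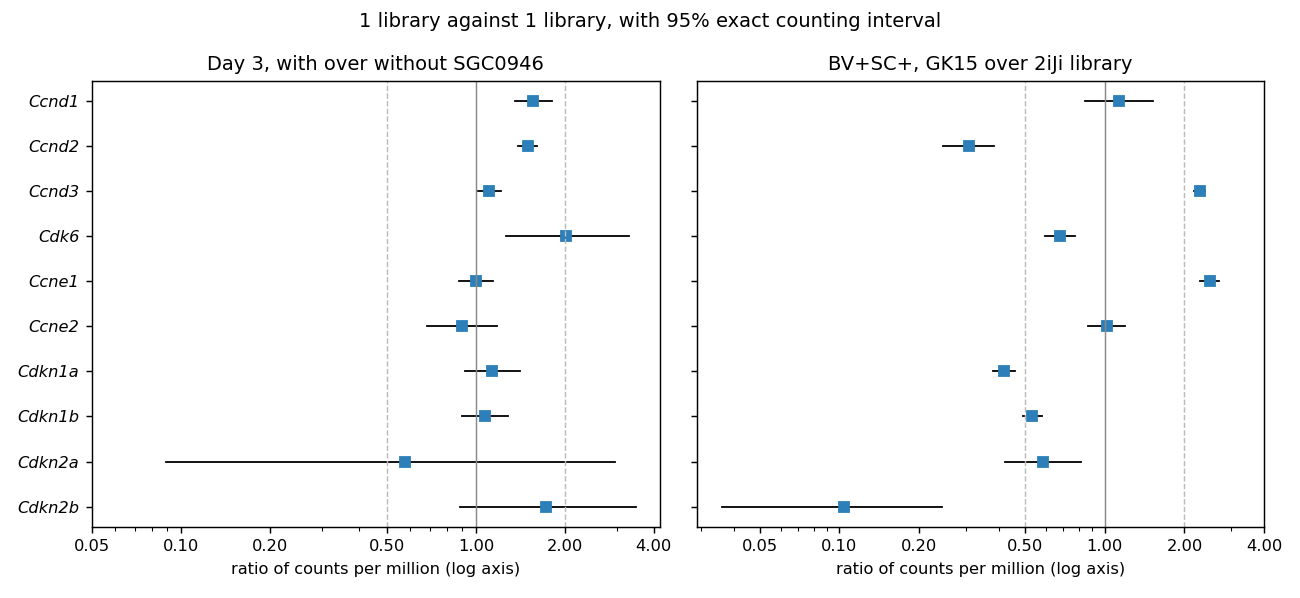
Ratio of CPM between single libraries on a log axis, with SGC0946 over without at Day 3 and GK15 over 2iJi in BV+SC+ cells. Lines are 95% exact counting intervals and dashed lines mark 2-fold. With SGC0946, *Ccnd1* (1.56) and *Ccnd2* (1.5) lie above 1, while the interval of *Cdkn2a* runs from 0.089 to 2.96.

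Read across all groups on 1 gene list, *Ccnd1* was ordered EpiSC (141 ± 11.1 TPM, SD, n = 3), Day 3 with SGC0946, Day 3 without and BV+SC+ (2.79 ± 0.28, n = 2). These orders join separate experiments and are given as a description. Each Day 3 condition is 1 library, and single libraries cannot overlap each other. *Ccnd2* had another order, with both Day 3 libraries first, then EpiSC and BV+SC+ (4.11 ± 3.03). The BV+SC+ range of *Ccnd3* held the values of all other groups on this list. *Cdkn1b* neighbours all overlapped, from BV+SC+ (47.8 ± 19.6) to Day 3 without SGC0946 (35.4). *Cdk6* was ordered EpiSC (48.3 ± 4.26), BV+SC+ (15.5 ± 3.39) and the Day 3 libraries.

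The unsorted Day 3 libraries can be set beside the sorted ones only as values, since the tables were normalised separately. *Cdkn2a* lay at 1.65 and 2.92 TPM in the unsorted libraries, on 3 and 5 counts, far under the *c-Kit*- libraries and with too few counts to be ordered against the *c-Kit*+ libraries. *Cdkn2b* lay at 8.59 and 5.06, between the populations and near the *c-Kit*+ libraries. *Ccnd2*, at 126 and 85.8, also lay between them. *Kit*, the gene of the sorting marker, did not. It lay at 120 and 102 TPM in the unsorted libraries, above the *c-Kit*+ libraries (99.6 and 96.0) and the *c-Kit*- libraries (4.81 and 3.24). *Krt7*, a trophoblast keratin, lay at 0.94 and 0.81 TPM in the unsorted libraries, against 51.7 and 36.3 in the *c-Kit*- and 0.29 and 0.47 in the *c-Kit*+ libraries. *Gata3*, of the same marker list, was instead highest in the unsorted libraries, at 28.01 and 54.41 TPM. It lay at 8.54 and 14.98 in the *c-Kit*- and at 6.33 and 5.97 in the *c-Kit*+ libraries. The 14 listed trophoblast markers summed to 12307 and 17357 TPM in the unsorted libraries, between the sums of the sorted populations. Of these, 7044 and 11786 TPM came from *Igf2* alone. What sets the unsorted and the sorted libraries apart was not tested.

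As a description over the 11 libraries, which share neither kit nor depth, Pearson's r of log2(TPM + 1) was highest for *Ccnd1* with *Lrp8* (0.979), *Cyfip2* (0.976) and *Pcdh1* (0.974). For *Ccnd2* the nearest genes were *B4galnt4* (0.962), *Zfp36l1* (0.961) and *Rfx1* (0.958), and for *Ccnd3* they were *Lemd2* (0.956), *Lcp1* (0.947) and *Cd276* (0.939). *Ccne1* lay nearest to *Ppm1a* (0.986), *Zmat3* (0.985) and *Wipi2* (0.976). *Cdk6* lay nearest to *Tdgf1* (0.96), *Slc7a3* (0.949) and *Spire1* (0.944), of which *Tdgf1* is a gene of pluripotent epiblast. *Cdkn2b* lay nearest to *Ctsb* (0.981), *Por* (0.973) and *Bahd1* (0.972), and *Cdkn2a* to *Ccdc120* (0.954), *Map4* (0.936) and *Btbd19* (0.929). Near *Cdkn1a* were *Stx1a* (0.922) and *Suox* (0.877), and the nearest genes of *Cdkn1b* were *Kxd1* (0.954), *Pigg* (0.944) and *Gm4631* (0.942). *Ccne2* had the weakest neighbours, *1500011B03Rik* (0.896), *Kif7* (0.888) and *Smurf1* (0.879). Among the members themselves r was 0.862 between *Cdkn1a* and *Cdkn2a*, 0.789 between *Cdkn2a* and *Cdkn2b* and 0.793 between *Ccnd3* and *Cdkn2a*, all 4 of which are highest in the *c-Kit*- libraries.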

How the data were processed

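Only the bulk RNA-seq tables of 11 libraries were used; other assays of the series were not used here. The authors aligned reads with Bowtie2 and quantified them per gene with RSEM (1.3.1 in the submitters' processing notes of the EpiSC, BV+SC+ and SGC0946 libraries, with another number in the methods) on mm10. They deposited expected counts, which are not normalised between libraries, TPM, which are scaled per library by effective length, and the mean transcript length of each gene. Labels name ribosomal RNA depletion for the EpiSC, BV+SC+ and SGC0946 libraries, while those of the sorted cells say mRNA. Replicates were not pooled. The members and lists were chosen with earlier results of these data known.

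After rounding of expected counts to integers, tests were run in edgeR 4.0.16 under R 4.3.3 (filterByExpr, TMM, glmQLFit, glmQLFTest, Benjamini-Hochberg over all genes tested, threshold 0.05), separately for the sorted cells and for BV+SC+ cells with EpiSCs. In these tests CPM are counts scaled to library size with TMM factors, and SE is the log2 fold change over the root of F. Ratios of CPM with exact intervals used library size alone, without TMM factors. Pairs of single libraries were compared by log2(TPM + 1) among genes over 1 TPM in either library, with exact Clopper-Pearson intervals (95%) for ratios of CPM. Such intervals and the floor of 3 counts cover counting error only. The steps were tested on simulated data. Named genes were the members, their kinase and inhibitor partners, label checks, up to 4 genes of each pathway list per comparison (largest log2 fold change among genes that passed, with a mean TPM of at least 5 and no overlap), and the 3 genes nearest to each member over 10619 others with a mean TPM of at least 5. Genes of the GK15 and 2iJi comparison, *Krt7* and *Gata3* beside the unsorted libraries, and *Trp53* were named after their values were seen. So were *Mycn*, *Igf2*, *Phlda2*, and *Myc* in the sorted cells. A few genes that the rule names are not reported here.

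Replicate libraries differed by more than sampling noise: the chi-square over its degrees of freedom was 2.01 to 4.46 for EpiSC and sorted pairs and 45.33 for the BV+SC+ pair, for genes whose pair held at least 20 counts. This value grows with depth for a given spread, and the BV+SC+ libraries were deeper and carried different medium labels, so the pairs cannot be ranked by it. GENCODE M21 gave positions and symbols, for 99.56% and 98.25% of identifiers. Promoter windows came from RefSeq, and shared transcript sequence (98% identity over at least 75 bases, BLAST+ 2.17.0) was found for 6 members. The largest shares were those of *Ccnd1* with *LTO1* (29.5% of a transcript), *Ccnd2* with *9330179D12Rik* (10.5%), *Ccnd3* with *Bysl* (18.2%), *Ccne2* with *Ints8* (21.1%), *Cdk6* with *Gm16505* (20.0%) and *Cdkn1a* with *AC167363.2* (12.6%). The counting is not stated to use strand, so reads of overlapping genes on opposite strands cannot be told apart and these values are uncertain to that extent. Alternatives were RLE factors, no filter, at least 10 counts in every library, DESeq2 1.42.0, a replicate block, an effective length offset, a threshold of 2-fold, each replicate left out (a lone library was then assumed to vary like the other group), and for the single libraries a pseudocount of 0.1, other filters, CPM and TMM-scaled TPM. Python 3.11.15 with SciPy 1.17.1 was used for the rest.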

Additional observations from a re-analysis of the deposited data

How the results depend on the processing

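In *c-Kit*+ against *c-Kit*- cells, all 98 alternative values of single members kept their direction and side of the threshold. Against 2 members higher and 4 lower, a minimum of 10 counts in every library left 2 lower, because it removes *Cdkn2a* and *Cdkn2b*, and leaving out a replicate gave 2 higher and 4 lower in every case. All genes that passed numbered 4574, and 2755 with DESeq2, 2693 with unadjusted P under 0.05 and 2-fold, 2518 with adjusted p and 2-fold, and 3078 to 5102 without a replicate. In BV+SC+ cells against EpiSCs, 1 member was higher, 3 without a filter, 0 with 10 counts in every library and 0 to 3 without a replicate, and 4 were lower, 3 or 4 without a replicate. Of 98 member values, 89 kept their side, 4 were weaker and 5 stronger, those of *Ccnd3* (0.61) and *Cdkn1b* (0.45) without a filter among the latter. Values that had not passed changed sign for *Ccnd3*, *Cdkn1a* and *Cdkn1b* without 1 BV+SC+ library, and for *Ccne2*, which was at -0.50 with the length offset. Over all genes 6608 passed, against 4122 with unadjusted P and 2-fold, 4011 with adjusted p and 2-fold, and 5482 to 7920 in separate fits without a replicate. Between the SGC0946 libraries, 0 members passed 2-fold under the 5 alternatives, all with a pseudocount, while the plain CPM ratio of *Cdk6* was 2.02, and 1373 genes became 555 with TPM over 1 in both libraries and 721 on CPM.

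No label says that replicate numbers mark pairs, although file names of the sorted libraries carry a date-like string shared by number, and the fits were unpaired. Deviations of same-numbered libraries correlated at 0.085 in the sorted cells, a single value for both pairs with 2 libraries a group, and at -0.048 and 0.003 for BV+SC+ and EpiSC libraries. With the replicate block, 2 members were higher and 4 lower in the sorted cells among 4871 genes, and 1 higher and 4 lower in BV+SC+ cells among 5293 genes, with *Cdkn2a* at 2.61. Depth limits *Cdkn2a* and *Cdkn2b*, which rest on at most 9 counts in each library of *c-Kit*+ cells and EpiSCs.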
